A study of Mus musculus with 33 samples.

Results

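The morphine response of the nucleus accumbens was compared between germ-free (GF) and conventional, water-drinking (H2O) C57BL/6J mice. For each gene, the quantity was an interaction: the log2 difference between morphine and saline in GF mice, minus the same difference in H2O mice. A positive value means that morphine minus saline was more positive in GF mice, and a negative value that it was more positive in H2O mice. The comparison used 22 of the 33 libraries of the study: 6 H2O saline, 5 H2O morphine, 6 GF saline and 5 GF morphine. Each is titled with a code, its group and a number, and was taken here as 1 mouse. H2O mice, bought at 7 to 9 weeks of age, drank plain water and are labelled as having a normal microbiome. Whole cages were assigned to that drink. GF mice were matched to them in age, were bred at the institution and lived in isolators, on the same chow and water after sterilisation. All 4 groups were injected daily for 7 days, with saline or with 20 mg/kg of morphine. Colony, isolator housing, sterilised food and germ-free status coincide in this design and cannot be told apart. Neither cages nor sequencing batches are given, so p-values measure the spread between these libraries.

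The nucleus accumbens, in the ventral striatum, is built mainly of inhibitory projection neurons with dopamine D1 or D2 receptors and is a part of the reward circuit. Morphine acts mainly at the mu opioid receptor, an inhibitory G protein-coupled receptor encoded by Oprm1, and repeated exposure leads to tolerance and dependence. Gut microbes supply the host with metabolites such as short-chain fatty acids, which GF mice lack. RNA was read from whole tissue, so fewer cells of a type and less RNA per cell cannot be told apart anywhere below.

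Mean depth, in megareads (M) assigned to genes, was 11.2 ± 0.966 M for H2O saline, 12.7 ± 2.15 M for H2O morphine, 8.32 ± 3.62 M for GF saline and 6.63 ± 0.580 M for GF morphine libraries (SD, n = 6, 5, 6 and 5). Both GF groups were thus shallower than H2O libraries, except for GF saline replicate 1 with 15.3 M. GF morphine replicate 5 stood apart in another way: its long transcripts were low. It also had the most reads given to no gene, 35.4%, against 21.0% to 22.7% in H2O libraries. GF saline libraries ran from 19.3% to 30.1% and the other GF morphine libraries from 22.1% to 27.0%. The interaction counts, and the list medians that moved most, are given without GF saline replicate 1 and GF morphine replicate 5 too. The striatal markers Drd1a (92.1 to 339 CPM, read counts after scaling every library to the same size), Drd2 (54.1 to 215 CPM) and Penk (769 to 1624 CPM) were present in all 22 libraries.

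The interaction followed the length and base composition of transcripts, and 4 genes show the range of sequences involved. They are the 2 negative and the 2 positive genes with the smallest p among the named ones: Lnpep, an aminopeptidase that cleaves oxytocin and vasopressin, Trip12, a ubiquitin ligase, Ly6a, a surface protein of vessel cells, and Smg9, a component of nonsense-mediated mRNA decay. The middle 90 bases of the longest GENCODE M21 coding sequence of each are printed 5′ to 3′, with G and C in capitals.
Lnpep: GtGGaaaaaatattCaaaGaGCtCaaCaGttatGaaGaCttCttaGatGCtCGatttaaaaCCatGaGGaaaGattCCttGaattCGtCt
Trip12: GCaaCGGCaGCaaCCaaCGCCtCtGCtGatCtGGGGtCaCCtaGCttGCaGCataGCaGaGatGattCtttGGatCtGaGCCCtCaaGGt
Ly6a: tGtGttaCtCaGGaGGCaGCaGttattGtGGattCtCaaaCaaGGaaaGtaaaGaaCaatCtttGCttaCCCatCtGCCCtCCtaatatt
Smg9: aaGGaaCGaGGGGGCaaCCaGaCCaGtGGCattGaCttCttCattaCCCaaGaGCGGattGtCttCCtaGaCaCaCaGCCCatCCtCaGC
The Lnpep stretch (bases 1492 to 1581 of 3075) holds 31 G or C, and its whole coding sequence has a GC content of 42.7%. The Trip12 stretch (2992 to 3081 of 6075) holds 49 (54.4%), above the 45.1% of that coding sequence. Smg9 (736 to 825 of 1560) holds 48 and Ly6a (157 to 246 of 402) holds 36, with coding GC contents of 59.6% and 49.3%. The longest transcripts measured 12052 bases (bp) for Lnpep, 9632 for Trip12, 955 for Ly6a and 2242 for Smg9.

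No gene passed the interaction test at a Benjamini-Hochberg adjusted p of 0.05 in edgeR's quasi-likelihood test: 0 of 14270 tested genes (0%), with a smallest adjusted p of 0.175. At an unadjusted p under 0.05 there were 1902 genes (13.3%), 771 positive (5.4%) and 1131 negative (7.93%). That split turned to 1157 positive and 843 negative with upper-quartile scaling. DESeq2 called 76 of the 13716 genes to which it gave an adjusted p (0.554%), 30 positive and 46 negative. Limma voom with sample quality weights called 3 (0.021%): Lnpep, Fndc3a and Cers6. The median interaction over all tested genes was -0.016, and the middle 50% of genes lay between -0.19 and 0.13.

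In H2O mice 0 of 14270 genes (0%) passed for morphine against saline, with 1847 (12.9%) at an unadjusted p under 0.05, while DESeq2 called 149 (1.33%) and voom 1195 (8.37%). GF morphine replicate 5 is not in that comparison and enters the edgeR count only through the shared filter, scaling and estimate of spread. Without it edgeR called 219 (1.53%), and without GF saline replicate 1 as well 337 (2.35%). In GF mice 1 gene passed (0.00701%), with 736 (5.16%) at an unadjusted p under 0.05, while DESeq2 called 2 (0.014%) and voom 0 (0%). The difference between the responses is what the interaction tests, so these counts are not a comparison of the mice. GF and H2O saline mice differed in 4125 genes by edgeR (28.9%, of which 15.9% higher and 13.1% lower in GF) and GF and H2O morphine mice in 415 (2.91%, of which 1.66% higher and 1.25% lower). The count for morphine mice was 212 without GF morphine replicate 5 (1.48%) and 111 to 692 over the fits that left out 1 library.

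GF and H2O responses share no library, and across the 14270 genes, which are not independent, they had a Spearman rho of -0.161. With offsets for transcript length and GC content the value was 0.039. The 2 responses had opposite signs in 8321 genes (58.3%). Among the 1902 genes with an unadjusted interaction p under 0.05 they did so in 1856, a share that choosing genes by the difference of the responses largely fixes.

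**Figure D1:**
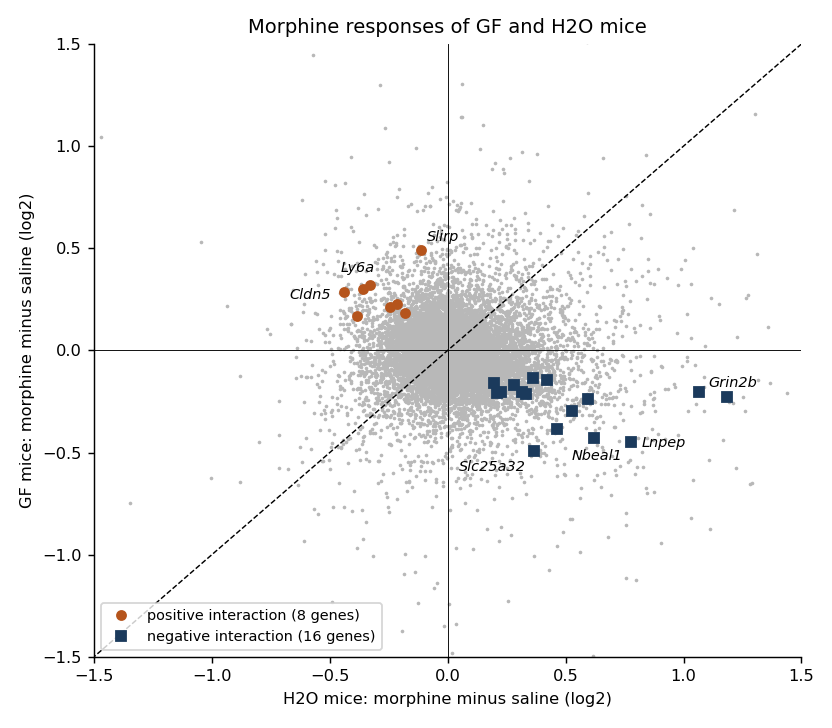
Morphine minus saline (log2) in H2O mice on the x axis and in GF mice on the y axis, 1 grey point a gene, with 28 of 14270 genes outside the range shown; the dashed line marks equal responses. The 24 genes with the smallest interaction p lie in the 2 quadrants of opposite sign, 8 at the upper left (circles) and 16 at the lower right (squares), as genes chosen for a difference between the responses tend to.

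The median interaction went from positive in short to negative in long transcripts. In the shortest 10% of genes (median 1106 bp) the median interaction was 0.17, from a GF response of 0.065 and an H2O response of -0.10, and 18.2% of these genes were positive at an unadjusted p under 0.05. In the longest 10% (median 8484 bp) it was -0.27, from a GF response of -0.097 and an H2O response of 0.18, and 32.8% were negative. Over all genes with a length, the Spearman rho with length was -0.509 and with GC content 0.344, as a description across genes. It was 0.438 for the H2O response and -0.348 for the GF response with length.

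The same slope could be read in each library, as the log2 change of its levels per doubling of transcript length. H2O saline libraries had the lowest median and ran from -0.070 through a median of -0.043 to -0.0035. H2O morphine libraries gave 0.026, 0.036, 0.040, 0.037 and 0.017, all above every H2O saline library. GF saline libraries ran from -0.0030 through 0.024 to 0.078, and GF morphine libraries gave 0.034, 0.053, -0.0030, -0.226 and 0.054, where the fourth value is replicate 5. Without that library the GF response had a rho with length of -0.051, the H2O response 0.435 and the interaction -0.370. Offsets for length and GC content remove the relation with length by construction (rho -0.0062). They left 0 genes past the threshold in edgeR (0%), with 1052 (7.37%) at an unadjusted p under 0.05, 623 positive (4.37%) and 429 negative (3.01%). The part of fragmentation, RNA quality or sequencing in these slopes was not tested.

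**Figure D2:**
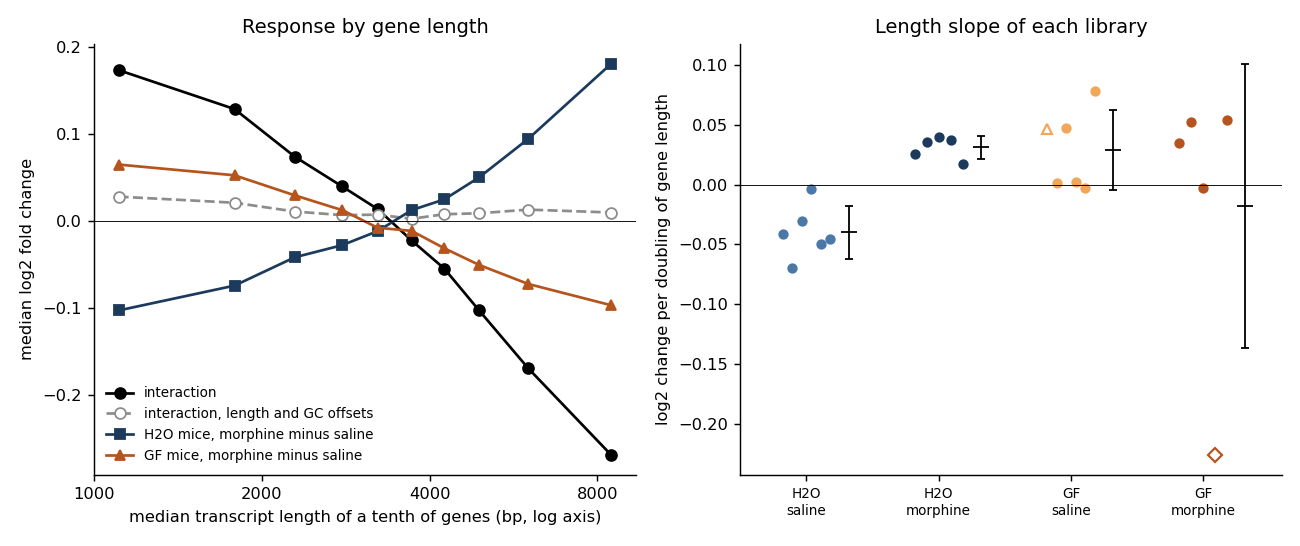
Left, the median log2 change in each 10% of genes ordered by transcript length (x axis, log scale, bp): the interaction falls from 0.17 to -0.27. With length and GC offsets it stays within 0.028 of 0, which these offsets bring about by construction. Right, the log2 change per doubling of length in each library (bars: mean ± SD), with GF morphine replicate 5 at -0.226 (open diamond), GF saline replicate 1 as an open triangle and the H2O saline libraries below 0.

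Opioid genes were looked at first. Oprm1, the receptor for morphine, was at 2.81, 3.47 and 4.74 CPM (lowest, median and highest) in H2O saline libraries and at 7.99, 8.34, 4.47, 8.43 and 8.85 CPM in H2O morphine libraries. It was at 4.96, 7.64 and 11.04 CPM in GF saline and at 9.03, 8.94, 6.25, 2.94 and 10.4 CPM in GF morphine libraries. H2O saline libraries were low and all lay below GF saline libraries, as in 4.91% of all genes, whereas GF morphine libraries overlapped both saline groups, with replicate 5 the lowest of them. H2O morphine replicate 4 fell within the H2O saline range. Morphine minus saline was 1.05 in H2O mice (edgeR adjusted p = 0.133) and -0.071 in GF mice (adjusted p = 0.975). The interaction of Oprm1 was -1.12 ± 0.35 (SE; unadjusted p = 0.00423, adjusted p = 0.224), -1.13 with length and GC offsets and -0.91 without GF morphine replicate 5. In saline mice Oprm1 was 1.104 higher in GF than in H2O mice (adjusted p = 0.00246), a comparison that uses the same H2O saline libraries as the interaction. The annotation has an exon of Oprm1 shared with Ipcef1, and the strand setting of the counting is not given.

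Of the 8 opioid receptor and peptide genes, all tested, 6 had a negative and 2 a positive interaction, with a median of -0.24. Only Oprm1 was under an unadjusted p of 0.05 in edgeR (7.93% of all genes were negative at that p), and 0 passed the threshold. Oprd1, the delta receptor, was at 19.0, 28.5, 20.7, 27.8 and 23.5 CPM in H2O morphine and at 25, 21.5, 13.1, 3.41 and 16.2 CPM in GF morphine libraries. Its interaction of -0.69 ± 0.40 rested partly on GF morphine replicate 5, the library at 3.41 CPM, and was -0.42 without it. Penk, the precursor of enkephalins, had the highest interaction of the list at 0.37 ± 0.21 (adjusted p = 0.445). Pnoc, the nociceptin precursor, had -0.83 ± 0.61. The remaining 4, Oprk1, Oprl1, Pdyn and Pomc, lay between -0.30 and 0.18.

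At an unadjusted p under 0.05, 0 dopamine and striatal projection neuron genes were positive and 1 was negative (5.4% and 7.93% over all genes). Of the 28 tested, 18 had a positive interaction, and the list's median was near 0, at 0.032. It was 0.17 without GF saline replicate 1, 0.11 without GF morphine replicate 5 and -0.091 without GF saline replicate 5, so its sign rested on single libraries. Drd1a had -0.098 ± 0.32 and Drd2 -0.030 ± 0.35, and the sign of each turned under several alternatives. Cyclic AMP signalling genes, downstream of the mu receptor, had a median of -0.14 (8 of 29 positive), which was -0.018 with length and GC offsets. It was -0.071 without GF morphine replicate 5, -0.072 without GF saline replicate 1 and -0.069 without GF saline replicate 4.

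The 24 genes with the smallest p all had an adjusted p of 0.175 in edgeR, and DESeq2 called each of them. The 8 positive ones were short (median 1993 bp, GC 54.2%) and the 16 negative ones long (median 7151 bp, GC 43.6%), against 3473 bp and 49.9% over all tested genes. What follows on their levels uses the 4 groups that chose them and is a description. H2O saline had the lowest of the 4 group means in 16 of 16 negative genes and the highest in 6 of 8 positive ones. H2O morphine libraries all lay above H2O saline libraries in 13 of them and all below in 7 (background 3.53% and 2.42%, from which nothing is read, since this contrast is part of the interaction). GF morphine libraries all lay above GF saline libraries in 2 (background 0.147%) and below in 0 (0.126%). GF and H2O saline mice differed past the threshold in 22 of the 24 (background 28.9%, likewise part of the interaction). With length and GC offsets all 24 kept their sign and 23 had a smaller interaction, and 21 stayed under an unadjusted p of 0.05. Without GF morphine replicate 5 all 24 kept their sign and an unadjusted p under 0.05. That library was the lowest GF morphine library in 16 of 16 negative genes and the highest in 5 of 8 positive ones.

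Vessel genes stood among the positive ones. Ly6a was at 28.1, 29.0 and 30.9 CPM in H2O saline and at 20.5, 20.6, 22.9, 24.5 and 25.5 CPM in H2O morphine libraries, which did not overlap. It was at 23.8, 28.9 and 31.8 CPM in GF saline and at 39.2, 29.3, 32.98, 44.3 and 30.8 CPM in GF morphine libraries, which overlapped. GF morphine libraries all lay above H2O morphine libraries, as in 3.1% of all genes, and the difference of 0.63 passed the test (edgeR adjusted p = 0.00186). The interaction of Ly6a was 0.66 ± 0.14, 0.56 with length and GC offsets and 0.58 without GF morphine replicate 5. Ly6a has close relatives in the Ly6 family, and reads could be split between them.

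Cldn5, the claudin of the tight junctions that seal the blood-brain barrier, showed another arrangement. It was at 36.7, 39.5 and 44.8 CPM in H2O saline, at 30.9, 28.4, 27.3, 28.8 and 32.5 CPM in H2O morphine, at 15.7, 24.0 and 26.3 CPM in GF saline and at 24.7, 29.8, 24.7, 34.1 and 22.1 CPM in GF morphine libraries. H2O saline libraries were the highest and overlapped with no other library of the 22. Its interaction was 0.73 ± 0.16, from a GF response of 0.28 and an H2O response of -0.44, and 0.53 with offsets. Vtn, vitronectin, made in the brain mainly by pericytes, was likewise highest in H2O saline mice (78.3, 80.3 and 94.8 CPM). It was at 57.9, 69.4, 63.3, 65.4 and 61.8 CPM in H2O morphine libraries, at 37.8, 51.3 and 56.2 CPM in GF saline libraries and at 50.8, 55.2, 61.0, 56.2 and 51.3 CPM in GF morphine libraries. Its interaction was 0.55 ± 0.12, and 0.42 with offsets.

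Among the other positive genes, Slirp, an RNA-binding protein that stabilises mitochondrial mRNAs, differed most in GF mice. It was at 7.21, 7.46 and 9.17 CPM in GF saline and at 10.4, 10.1, 11.8, 13.01 and 9.54 CPM in GF morphine libraries, without overlap. H2O saline libraries were at 8.72, 8.89 and 9.68 CPM and H2O morphine libraries at 7.78, 7.23, 8.75, 8.51 and 9.51 CPM, with overlap. Its interaction was 0.60 ± 0.14 (GF response 0.49, H2O response -0.11), and 0.63 with length and GC offsets. Coq7, an enzyme of ubiquinone synthesis, had 0.46 ± 0.10 with and without offsets, from a GF response of 0.21 and an H2O response of -0.25. Hspa1l, an Hsp70 family chaperone, had 0.65 ± 0.15 and was the 1 gene of 14270 (0.00701%) whose groups did not overlap in either response and moved opposite ways, a feature found after its values were seen. It was at 6.16, 8.06 and 9.02 CPM in GF saline and at 10.4, 9.96, 9.10, 10.4 and 9.20 CPM in GF morphine libraries, against 8.93, 10.3 and 11.6 CPM in H2O saline and 8.31, 8.87, 7.90, 7.00 and 8.60 CPM in H2O morphine libraries. Hspa1l has close relatives in Hspa1a and Hspa1b. Smg9 had 0.44 ± 0.10 and Nabp2, a subunit of a single-stranded DNA-binding complex, 0.37 ± 0.086.

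The negative genes were long transcripts that were low in H2O saline mice. Lnpep was at 20.5, 24.3 and 29.9 CPM in H2O saline and at 47.8, 39.6, 40.5, 39.6 and 41.8 CPM in H2O morphine libraries, without overlap. It was at 37.7, 50.6 and 69.5 CPM in GF saline and at 39.3, 45.3, 39.1, 17.6 and 44.5 CPM in GF morphine libraries, where replicate 5 was far below the other 4. The interaction of Lnpep was -1.22 ± 0.24, -0.84 with length and GC offsets and -1.04 without that library.

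Grin2b, the NMDA receptor subunit GluN2B, had an interaction of -1.27 ± 0.31, and -0.85 with offsets. Its H2O saline libraries, at 35.4, 45.1 and 67.7 CPM, lay below its H2O morphine libraries at 86.8, 117, 97.8, 105 and 86.2 CPM. GF saline libraries spread widely, from 61.3 through 99.8 to 154 CPM, over GF morphine libraries at 104, 113, 70.5, 53.9 and 93.4 CPM. Cers6, a ceramide synthase, had -0.82 ± 0.18 and Nbeal1, a neurobeachin relative, -1.05 ± 0.25. Mmp16, a membrane-bound matrix metalloproteinase, had -0.85 ± 0.20, Slc25a32, a mitochondrial folate carrier, -0.86 ± 0.19 and Elk4, a transcription factor of the serum response, -0.83 ± 0.20. Trip12 (-0.45 ± 0.098), Dmd, which encodes dystrophin, and Vcan (-0.57 ± 0.14), the proteoglycan versican, lost most of their interaction with length and GC offsets: to -0.095, -0.12 and -0.17. The others, Fndc3a, Etv3, Crkl, Cep170 and Zbtb11, lay between -0.52 and -0.36. An exon is shared with another gene in 8 of the 24 named genes, among them Fndc3a, Hspa1l, Slirp, Cep170, Elk4, Grin2b and Zbtb11.

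**Figure D3:**
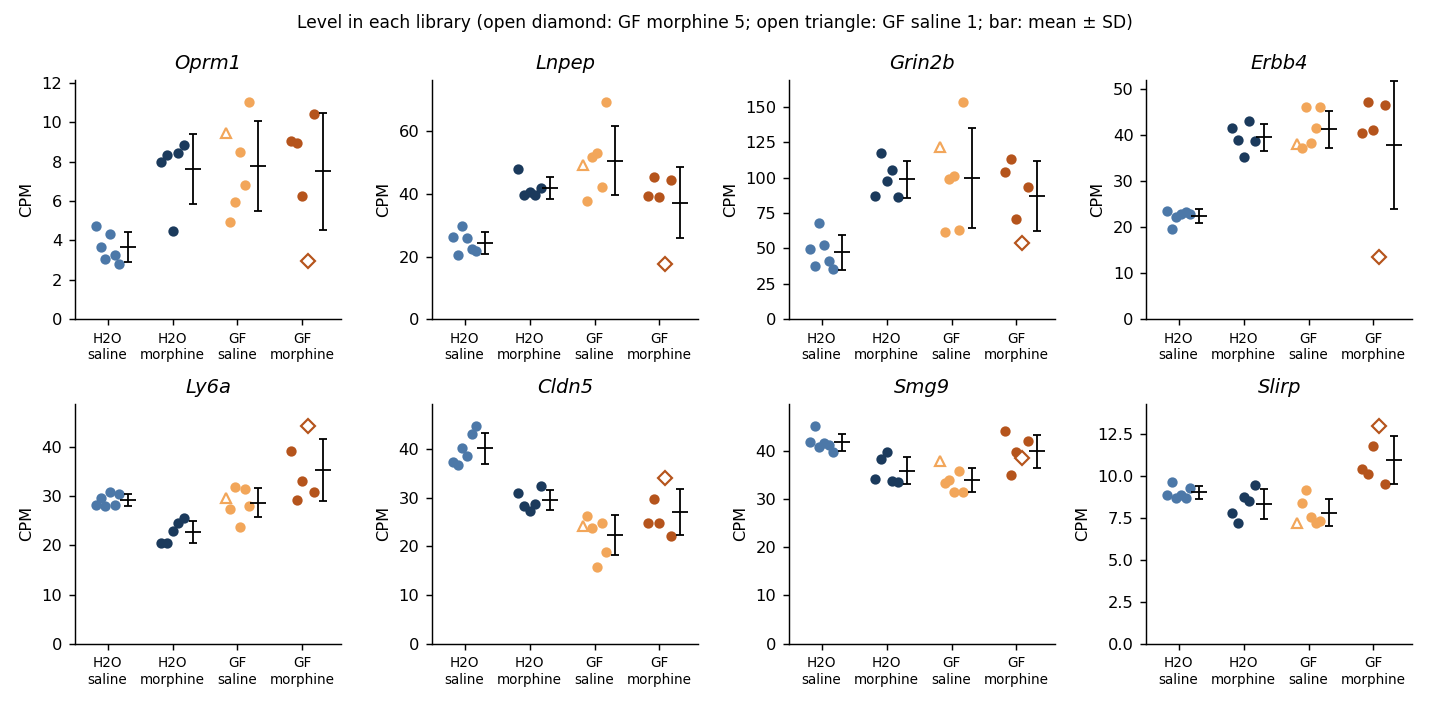
Level (CPM, axes from 0) of 8 genes in each library of the 4 groups, with bars for mean ± SD. In Oprm1, Lnpep, Grin2b and Erbb4 the H2O saline libraries are low and GF morphine replicate 5 (open diamond) is the lowest GF morphine library, while in Ly6a and Cldn5 the H2O saline libraries lie above the H2O morphine libraries.

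Leaving out GF morphine replicate 5 gave the edgeR interaction 5 calls among 14352 tested genes (0.0348%), all negative: Erbb4, Lnpep, Cers6, Klhl11 and Tmem178b. Erbb4, a neuregulin receptor kept by striatal interneurons, was at 19.7, 23.0 and 23.6 CPM in H2O saline and at 41.5, 39.0, 35.3, 43.1 and 38.9 CPM in H2O morphine libraries, without overlap. GF saline libraries were at 37.3, 39.9 and 46.2 CPM and GF morphine libraries at 40.5, 47.3, 41.2, 13.6 and 46.7 CPM, so that only replicate 5 was outside the GF saline range on the low side. Without it the interaction of Erbb4 was -0.71 ± 0.11 (adjusted p = 0.0169), from a GF response of 0.097 and an H2O response of 0.81. With it the value was -0.94 ± 0.25 (adjusted p = 0.189), and -0.57 with length and GC offsets.

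Lnpep (-1.04 ± 0.17, adjusted p = 0.0349) and Cers6 (-0.66 ± 0.11, adjusted p = 0.0349) passed in the same edgeR fit. So did Klhl11, a ubiquitin ligase adaptor (-0.60 ± 0.11, adjusted p = 0.0412), and Tmem178b, a little-described membrane protein (-0.74 ± 0.13, adjusted p = 0.0469). Tmem178b was at 60.4, 59.9, 51.7, 54.5 and 59.1 CPM in H2O morphine and at 55.8, 63.0, 54.0, 16.1 and 57.4 CPM in GF morphine libraries, of which replicate 5 was again the low one. For Klhl11 the transcript is short, at 2393 bp, and the interaction with offsets was -0.82 in all 22 libraries. The others measured 6250 to 12052 bp. With GF saline replicate 1 left out too, 6 genes passed (0.0419%), all negative.

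Flt3l, the FLT3 ligand that supports dendritic cell and progenitor growth, was the 1 gene past the threshold for morphine in GF mice. It was at 6.94, 4.98, 4.69, 5.26 and 5.79 CPM in GF morphine libraries, above all GF saline libraries, whose highest was 3.605 CPM. The GF response of Flt3l was 0.92 ± 0.15 (edgeR adjusted p = 0.0497) and the H2O response 0.20. The interaction was 0.72 ± 0.20 (unadjusted p = 0.00182, adjusted p = 0.206), so a difference between the mice did not pass. Without GF morphine replicate 5 the GF response was 0.94 and 0 genes passed in GF mice by edgeR. Of the 22 fits that left out 1 library, 5 gave 1 gene past the threshold in GF mice and 17 gave 0. Which gene it was in those 5 was not recorded.

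Endothelial genes, as a list of 24 markers all tested, had 23 positive interactions and a median of 0.26, against -0.016 over all genes. At an unadjusted p under 0.05, 10 were positive and 0 negative (5.4% and 7.93% over all genes), and 0 passed the edgeR threshold (DESeq2 called Ly6a, Cldn5 and Ly6c1). The 10 are named after their values were seen: Ly6a, Cldn5, Ly6c1 (0.53), Emcn (0.53), Eng (0.48), Esam (0.47), Egfl7 (0.34), Itm2a (0.29), Pltp (0.27) and Bsg (0.25). They include endoglin (Eng), a TGF-beta co-receptor, and basigin (Bsg), a partner of monocarboxylate transporters. The median was 0.27 with length and GC offsets, 0.26 without GF morphine replicate 5 and 0.25 without GF saline replicate 1. The list's median response was -0.18 in H2O mice, where 0 of 24 were positive, and 0.091 in GF mice, where 19 were. The mean log2 CPM of the list was 5.04, 5.11 and 5.17 in H2O saline and 4.86, 4.94 and 4.95 in H2O morphine libraries (lowest, median and highest), without overlap. It was 4.44, 4.88 and 5.00 in GF saline libraries and 4.87, 4.91 and 4.98 in GF morphine ones, with overlap. H2O saline libraries were thus above the other 16, and in saline mice 13 of the 24 passed the test as lower and 2 as higher in GF mice (13.1% and 15.9% over all genes). The part of vessel content of the dissected tissue in this was not tested.

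Mural cell genes, of pericytes and smooth muscle, were positive in 11 of 14 tested, 4 of them at an unadjusted p under 0.05 (5.4% over all genes), with a median of 0.19. It was 0.12 without GF morphine replicate 5 and 0.068 without GF saline replicate 4. The 4, named after their values were seen, were Vtn, Pdgfrb (0.34), the receptor that recruits pericytes, Ndufa4l2 (0.98) and Des (1.02), desmin. Alas2, the haem synthesis enzyme of red cell precursors, had an interaction of 1.58 ± 0.39 (DESeq2 adjusted p = 0.0397). H2O saline libraries held 4.25, 3.42, 4.57, 11.2, 6.61 and 9.46 CPM of Alas2 and H2O morphine libraries 2.83 to 3.47 CPM. GF saline libraries held 1.41 to 2.83 CPM and GF morphine libraries 1.87 to 3.72 CPM, and the 5 highest values were all in H2O saline mice. It shares an exon with Apex2. The erythroid list that holds Alas2, with 4 of 10 genes tested, had a median interaction of 0.11 (3 positive). That list's mean log2 CPM was 5.66 to 6.04 in H2O saline and 5.54 to 5.63 in H2O morphine libraries. It was 5.045 to 5.33 in GF saline and 5.25 to 5.53 in GF morphine libraries, so H2O saline libraries were above all others.

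**Figure D4:**
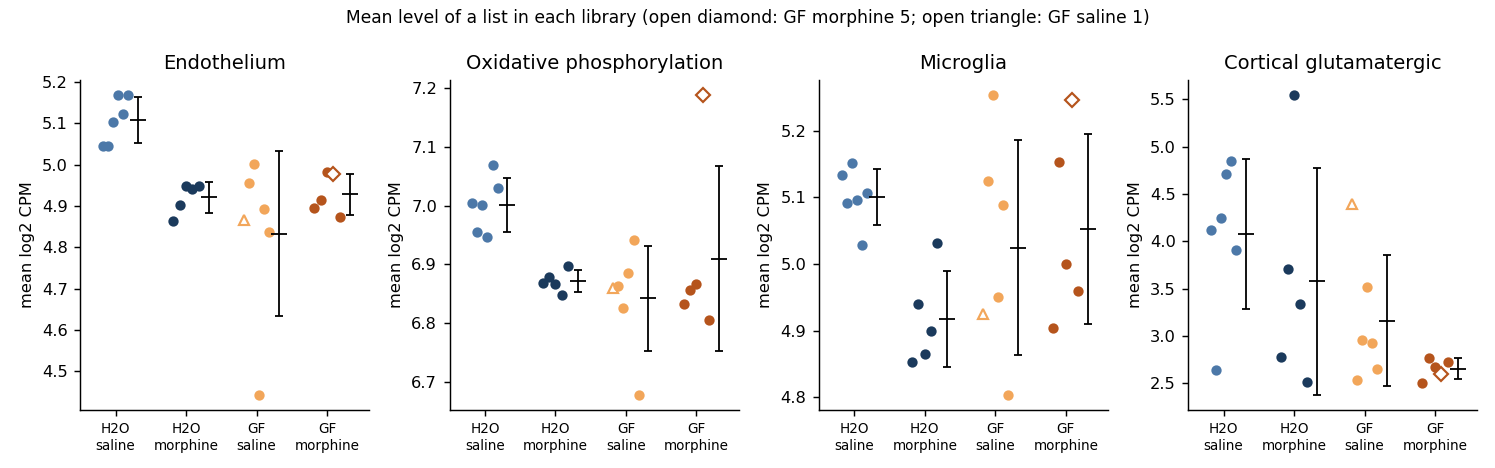
Mean log2 CPM of the tested members of 4 lists in each library (bars: mean ± SD), on separate scales. H2O saline libraries lie above the 16 others for endothelium, GF morphine replicate 5 (open diamond) is highest for oxidative phosphorylation at 7.19, microglial levels overlap between GF groups, and the cortical list is low, 2.50 to 2.77, in all GF morphine libraries.

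Nuclear genes of oxidative phosphorylation, the subunits of the respiratory chain and ATP synthase, were nearly all on 1 side: 73 of 74 tested were positive, 35 at an unadjusted p under 0.05 and 0 negative (5.4% and 7.93% over all genes), with a median of 0.22. Cox5b and Cox6a1, subunits of cytochrome c oxidase, had 0.30 ± 0.097 and 0.31 ± 0.10, Ndufa13 of complex I 0.34 ± 0.12 and Atp5d of ATP synthase 0.30 ± 0.090. Their transcripts were short, with a median of 1186 bp. With length and GC offsets the median was 0.084 and 7 were positive at an unadjusted p under 0.05 (4.37% over all genes). Without GF morphine replicate 5 the median was 0.14 and 21 were positive at that p (4.41% over all genes). The median response was -0.13 in H2O mice, where 3 were positive, and 0.066 in GF mice, where 71 were, or 0.0077 without that library. List levels were 6.95, 7.00 and 7.07 in H2O saline, 6.85, 6.87 and 6.90 in H2O morphine, 6.68, 6.86 and 6.94 in GF saline libraries and 6.81, 6.86 and 7.19 in GF morphine ones. Levels in H2O saline libraries exceeded those of all H2O morphine and GF saline libraries, and the 7.19 was replicate 5.

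Microglial genes were positive in 20 of 22 (47.0% over all genes), with a median of 0.20 and 5 positive at an unadjusted p under 0.05 (5.4% over all genes). Those 5, named after their values were seen, were Olfml3 (0.44), C1qc (0.44) and C1qb (0.30) of the complement C1q complex, Aif1 (0.60) and Tmem119 (0.28). Olfml3, an extracellular protein of microglia, was at 27.5, 29.0 and 30.9 CPM in H2O saline and at 21.9, 26.0, 24.5, 25.8 and 25.1 CPM in H2O morphine libraries, without overlap. It was at 16.9, 22.6 and 23.3 CPM in GF saline and at 22.4, 26.5, 22.9, 24.5 and 26.9 CPM in GF morphine libraries, with overlap. DESeq2 called it (adjusted p = 0.0473), and with length and GC offsets its interaction was 0.55. The list's response was -0.20 in H2O mice, where 1 of 22 was positive, and 0.021 in GF mice.

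Interferon and antigen presentation genes had a median of 0.37, with 24 of 28 tested positive and 3 at an unadjusted p under 0.05 (5.4% over all genes). It was 0.13 without GF morphine replicate 5 and 0.067 without GF saline replicate 1 as well. The 3, named after their values were seen, were Ifitm3 (0.78), which restricts virus entry, H2-Aa (1.18), an MHC class II chain whose group means were all under 2 CPM, and Bst2 (1.26, or 0.52 without that library), tetherin. Collagen and meningeal genes had a median of 0.26, with 21 of 28 positive (47.0% over all genes). Of these 3 were under an unadjusted p of 0.05 (5.4% over all genes): Cd248 (0.87), Bgn (0.68) and Col6a2 (0.42). Without GF morphine replicate 3, whose list level was 4.01 against at most 2.93 in the other GF morphine libraries, that median was -0.045.

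Neuronal signalling lists lay on the negative side, and most came near 0 with length and GC offsets. Calcium and sodium channel genes, with a median transcript of 7926 bp, had 5 of 25 positive, 5 negative at an unadjusted p under 0.05 and a median of -0.26, which was -0.028 with offsets, where 7.93% of all genes were negative under that p. Scn2a1, a sodium channel of axons, had -0.49 ± 0.15 (-0.16 with offsets) and Nalcn, the sodium leak channel, -0.35 ± 0.11 (-0.074 with offsets). Glutamate receptor and scaffold genes had a median of -0.17 (11 of 41 positive, 5 negative under that p), -0.038 with offsets and -0.092 without GF morphine replicate 5. Among them Grin2a, the GluN2A subunit, had -1.05 ± 0.34 and Grik3, a kainate receptor subunit, -0.54 ± 0.15. GABA genes had -0.15 (-0.033 with offsets), led by the receptor subunit Gabrb1 at -0.71 ± 0.21. Potassium channel genes had -0.13 (-0.041 with offsets and -0.083 without GF morphine replicate 5), where Kcnt2 had -0.78 ± 0.25 and Kcna2 -0.44 ± 0.16. Oligodendrocyte precursor genes had -0.17, and 0.028 with offsets, so the sign turned, and -0.090 without GF saline replicate 5.

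**Figure D5:**
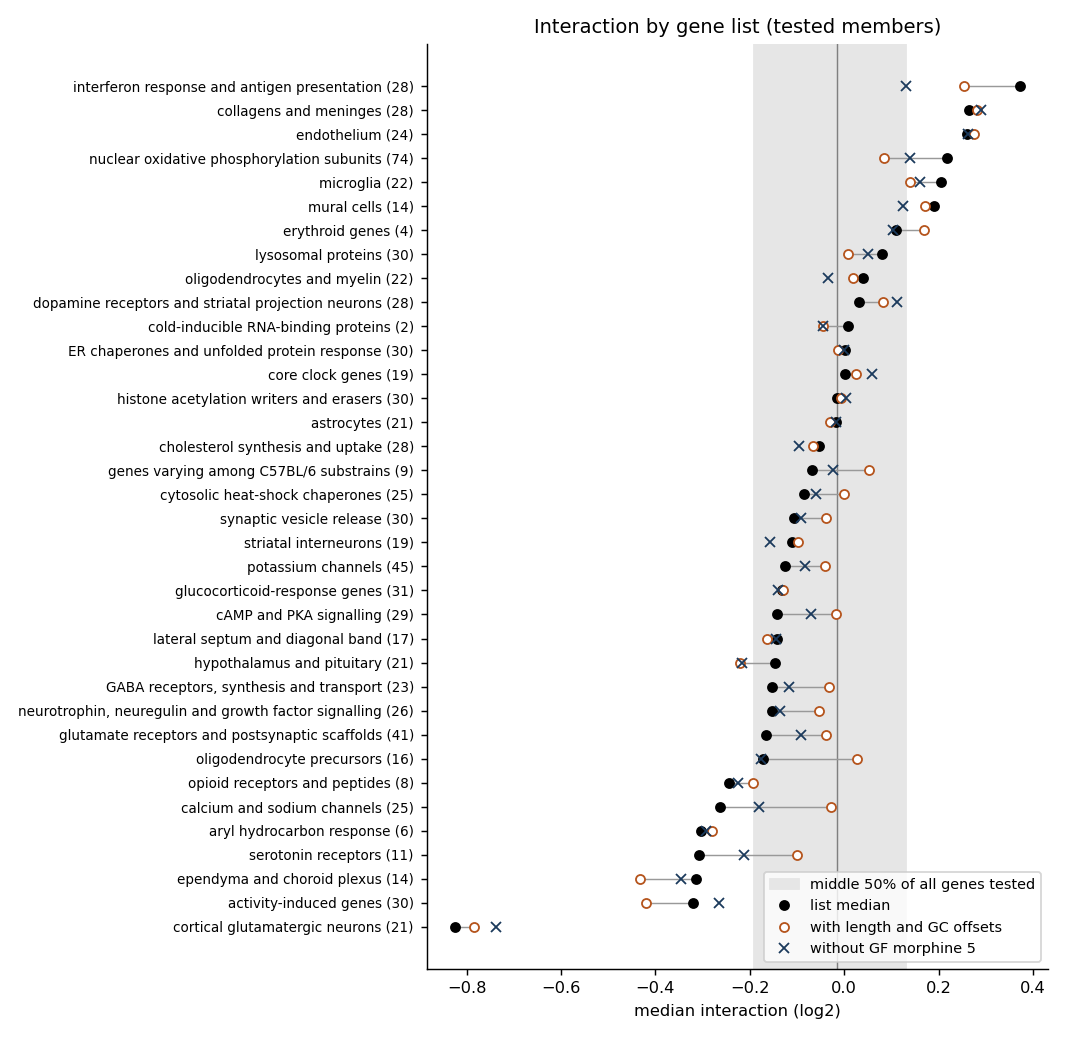
Median interaction (log2, x axis) of the tested members of 36 lists (numbers in parentheses), as tested (filled circles), with length and GC offsets (open circles) and without GF morphine replicate 5 (crosses); the grey band is the middle 50% of all tested genes. Endothelium stays near 0.26 under all 3, oxidative phosphorylation moves from 0.22 to 0.084 with offsets, and the calcium, sodium and potassium channel, glutamate and GABA lists move to near 0.

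Activity-induced genes, which neurons switch on within minutes to hours of firing, did not follow that course: their median was -0.32 and was -0.42 with offsets. Of 30, 6 were positive. At an unadjusted p under 0.05, 0 were positive (5.4% over all genes) and 2 negative (6.67%, against 7.93% over all genes). The 2 were Dusp5, a nuclear ERK phosphatase (-0.81 ± 0.32), and Nr4a1, an orphan nuclear receptor (-1.13 ± 0.52). Fos was at 17.8, 23.0, 32.96, 8.69, 13.8 and 14.4 CPM in H2O saline and at 28.1, 28.5, 46.3, 38.7 and 5.54 CPM in H2O morphine libraries. In GF saline it was at 43.1, 16.8, 25.3, 40.1, 29.0 and 22.7 CPM and in GF morphine libraries at 29.3, 8.35, 37.4, 27.2 and 26.9 CPM. All 4 groups overlapped, and the interaction of Fos was -0.89 ± 0.55 (edgeR adjusted p = 0.504). The list median ran from -0.45 to -0.17 when libraries were left out in turn, highest without H2O morphine replicate 4, and was -0.19 without GF saline replicate 1.

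Glucocorticoid-response genes set GF and H2O mice apart under both treatments: 19 of 31 tested passed as higher in GF saline and 13 as higher in GF morphine mice, and 0 as lower in either (over all genes 15.9% and 1.66% higher, 13.1% and 1.25% lower). Their interaction had a median of -0.13, with 10 of 31 positive. At an unadjusted p under 0.05, 0 members were positive and 2 negative (5.4% and 7.93% over all genes). With length and GC offsets the median was -0.13, and 0 members were positive and 5 negative at that p (4.37% and 3.01% over all genes). Zbtb16, a zinc finger repressor induced by glucocorticoids, was at 4.25, 7.51 and 10.8 CPM in H2O saline and at 9.88, 7.38, 12.9, 7.68 and 7.94 CPM in H2O morphine libraries. It was at 28.0, 37.9 and 57.9 CPM in GF saline and at 24.6, 23.1, 29.6, 14.2 and 28.8 CPM in GF morphine libraries. All GF libraries were above all H2O libraries, and GF morphine libraries lay at the low end of GF saline or below. Its interaction was -1.04 ± 0.33 (edgeR adjusted p = 0.226) and -0.89 without GF morphine replicate 5. Pdk4, a kinase that spares glucose, had -0.54 ± 0.17. Fkbp5 and Sgk1, commonly used reporters of corticosterone, had -0.067 ± 0.15 and -0.094 ± 0.23, although Sgk1 was 1.27 higher in GF than in H2O saline mice and 1.18 higher in morphine mice.

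Of the remaining neural and glial lists, several had few members at a small p. Striatal interneuron genes had a median of -0.11, with 7 of 19 positive. At an unadjusted p under 0.05, 2 were positive and 1 negative (5.4% and 7.93% over all genes). The 2 were Sst, somatostatin (0.47), and Npy, neuropeptide Y (0.50), and with length and GC offsets 0 members were under that p. Astrocyte genes had -0.017, where Slc4a4, a bicarbonate transporter, was at -0.40, and myelin genes 0.040 with 0 of 22 at that p in either direction. Heat-shock chaperones had -0.084, led by Hspa4l (-0.41), although 17 of 25 passed as higher in GF saline mice (15.9% over all genes). Histone acetylation genes had -0.016, with 7 of 30 negative at that p (7.93% over all genes). With length and GC offsets 1 was (3.01% over all genes), and without GF morphine replicate 5 there were 3. Among the 7 were Hdac4 (-0.77, or -0.54 without that library), a deacetylase that represses MEF2 targets, and Kat6a (-0.41, or -0.13 with offsets). All 6 tested aryl hydrocarbon genes were negative, 2 of them at that p (7.93% over all genes): Tiparp (-0.87) and the receptor Ahr (-0.49). Both the astrocyte and the histone acetylation median turned positive with upper-quartile scaling. Lysosomal genes had 0.080, cholesterol genes -0.053, endoplasmic reticulum chaperones 0.0017 and clock genes 0.0012. Serotonin receptor genes had -0.31 (-0.10 with offsets and -0.097 without H2O morphine replicate 4), neurotrophin and growth factor genes -0.15 (-0.052 with offsets) and vesicle release genes -0.11 (-0.038 with offsets and -0.0022 without H2O morphine replicate 4). The signs of the astrocyte, myelin, histone acetylation, clock and endoplasmic reticulum medians turned when single libraries were left out. The interneuron median ran from -0.18 to -0.035, the astrocyte median from -0.097 to 0.067, the myelin median from -0.080 to 0.20, the lysosomal median from 0.039 to 0.11 and the heat-shock median from -0.11 to -0.0095 over those fits. Cholesterol genes ran from -0.10 to -0.030.

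The level of neighbouring-tissue markers varied between libraries. Markers of cortical glutamatergic neurons, 21 of 23 tested, had a mean log2 CPM of 2.64, 4.18 and 4.85 in H2O saline, 2.52, 3.34 and 5.55 in H2O morphine, 2.54, 2.94 and 4.39 in GF saline libraries and 2.50, 2.68 and 2.77 in GF morphine ones. The highest values were H2O morphine replicate 4 at 5.55 and, among GF libraries, GF saline replicate 1 at 4.39. All 4 groups overlapped. The list's median interaction was -0.83, with 3 positive. It was -0.34 without GF saline replicate 1 and 0.15 without H2O morphine replicate 4. Hypothalamic and pituitary markers ran from 1.66 to 4.32, with medians of 2.23 in H2O saline, 2.65 in H2O morphine, 3.18 in GF saline libraries and 3.20 in GF morphine libraries. H2O saline libraries, at most 2.41, were all below GF morphine libraries, at least 2.74. The median interaction of that list was -0.15, or -0.30 without GF saline replicate 1. Of its 21 tested members, 2 were positive and 6 negative at an unadjusted p under 0.05 (5.4% and 7.93% over all genes). The 2 were Sst and Npy, which are on the interneuron list too. With length and GC offsets 0 were positive and 2 negative at that p (4.37% and 3.01% over all genes). Ependymal genes had a median interaction of -0.31 and septal genes -0.14. With covariates for neighbouring tissue 0 genes passed the interaction test in edgeR, with 2426 at an unadjusted p under 0.05.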

How the data were processed

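Per the labels' protocols, cDNA of polyadenylated RNA from mouse nucleus accumbens was prepared with a SMARTer kit and fragmented by shearing. The authors deposited read counts per gene symbol, as whole numbers, and a normalised signal. Within a library, dividing the deposited count by the deposited signal gives 1 constant over 10852 shared genes (largest relative deviation 5.1e-15), and only counts were tested. Tools named in the submitters' processing notes are edgeR, STAR 2.4.0 and FastQC. The build, the annotation and whether counting used strand are not stated, so no positions are printed. Of 27 gene names turned into dates, 19 were restored from the normalised table and 8 left out, leaving 24053 genes. The 5 tally entries (19.3% to 35.4% of reads) stayed out.

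In R 4.3.3, edgeR 4.0.16 fitted the 22 libraries with 4 group means (TMM factors, filterByExpr at a minimum count of 10, glmQLFit and glmQLFTest, two-sided, 18 residual degrees of freedom, common biological coefficient of variation 0.137). Log2 CPM used a prior count of 2. Errors of log2 differences are standard errors and others are SD. Alternatives were DESeq2 1.42.0, limma 3.58.1 voom, other scalings and filters, thinning, length and GC offsets (splines of 5 degrees of freedom per library, on the longest GENCODE M21 transcript of a symbol, available for 99.3% of tested genes), the replicate number as a block, neighbouring-tissue covariates and each library left out. Libraries of 1 group correlated at r of 0.958 to 0.993 in log2 CPM and none repeated another (chi-squared over its degrees of freedom 3.15 to 37.9). The code was tested on simulated data.

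Named genes are the 24 with the smallest interaction p and at least 2 CPM on average in some group, without gene models, pseudogenes, ribosomal protein and mitochondrial genes. To these were added the 2 members of each list with the smallest p, and Oprm1, Oprd1, Oprk1, Penk, Pdyn, Drd1a, Drd2, Fkbp5, Sgk1 and Fos. The groups, the lists and this rule were chosen with earlier results of these data known. Single-gene results of a few of these are not reported here. The antibiotic groups entered only the alternative with all 33 libraries in the fit and were not analysed otherwise.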

Additional observations from a re-analysis of the deposited data

Results flagged for a closer look

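In groups of 5 or 6 libraries, 13 of 132 sets of values had a highest or lowest library that stood far from the others (Dixon's criterion). Chance flags about 5% of such sets, or 1 in 20, if they are independent. Here the genes were chosen from the same libraries and the sets share libraries, so the shares are not a test. GF morphine replicate 5 accounted for 5 of the 13: its length slope was -0.226 (nearest other library -0.0030), its oxidative phosphorylation level 7.19 log2 CPM (6.87), and Lnpep (17.65 CPM against 39.1), Erbb4 (13.6 against 40.5) and Tmem178b (16.1 against 54.0) were low in it. Lnpep, Erbb4 and Tmem178b were among the genes that passed with this library left out, so their flags were not independent of that choice. H2O morphine replicate 4 had low Oprm1 (4.475 CPM against 7.99) and low Penk (846.8 CPM against 1267). GF saline replicate 1 had 15.3 M reads, against at most 8.125 M in the other GF libraries. The endothelial level was lowest in GF saline replicate 4 (4.443 log2 CPM against 4.838) and the collagen and meningeal level highest in GF morphine replicate 3 (4.013 against 2.926). Activity-induced genes were highest in H2O saline replicate 5 (5.191 log2 CPM against 4.714). Lnpep was highest in H2O morphine replicate 2 (47.8 CPM against 41.8), and Erbb4 lowest in H2O saline replicate 4 (19.7 CPM against 22.3).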

How the results depend on the processing

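For the interaction (GF minus H2O morphine response), edgeR called 0 genes under all alternatives with the 22 libraries, DESeq2 76, voom 3, and edgeR 6 without both GF saline 1 and GF morphine 5 (added after seeing the data). Leaving out 1 library gave 0 to 5, where the 5 came without GF morphine replicate 5. Morphine minus saline in GF mice gave 2 with DESeq2 and 0 with voom, no filter, thinning, length and GC offsets, offsets with genomic span, the replicate block, the block with offsets, neighbouring-tissue covariates and without both libraries, and 0 to 1 leaving out 1. Morphine minus saline in H2O mice gave 149 with DESeq2, 1195 with voom, 5 with covariates, 337 without both and 0 to 219 leaving out 1, with 219 without GF morphine replicate 5 and 3 without GF saline replicate 6. The latter libraries enter that count only through the shared filter, scaling and spread. GF minus H2O among saline mice gave 2086 with offsets, 1907 with block and offsets, 2190 with genomic span and 2843 to 4992 leaving out 1. GF minus H2O among morphine mice gave 810 with DESeq2, 1027 with voom, 844 with all 33 libraries, 276 thinned, 702 with the block, 135 with covariates and 111 to 692 leaving out 1: 272, 111, 263 and 133 without H2O morphine replicates 2, 3, 4 and 5, 149 and 212 without GF morphine replicates 3 and 5, and 692 without GF saline replicate 1. In the check on gene length and GC content, the rho of the interaction with length was -0.4281 with voom, -0.2824 without a filter, -0.4748 with the block, -0.3383 without both, -0.4117 for genomic span and -0.5372 to -0.3698 leaving out 1. The genes at an unadjusted p under 0.05 numbered 1052 with offsets and 849 with block and offsets. The cause was not tested, except that offsets remove length by construction.

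Replicate numbers did not pair libraries: 25 same-number pairs had a mean r of -0.024 (-0.498 to 0.486), and with the replicate block 0 genes passed for the interaction, with 1357 at an unadjusted p under 0.05. Of 89 named genes, 85 kept the sign of their interaction in all 37 alternatives. The sign turned for Drd2 with voom (0.025), upper-quartile factors (0.020), block (0.119), block and offsets (0.033) and without both (0.282), for Drd1a with block (0.015), block and offsets (0.070) and without both (0.089), for Sgk1 with block and offsets (0.013) and genomic span (0.072), and for Fkbp5 with genomic span (0.022) and without both (0.086). Leaving out 1 library gave -0.26 to 0.035 for Drd1a, -0.18 to 0.187 for Drd2, -0.13 to 0.011 for Fkbp5 and -0.19 to 0.067 for Sgk1. Of 1332 list medians, 1298 stayed within 1 SD of list levels. Depth was lower in the GF arm: its libraries other than GF saline replicate 1 held 4.87 to 8.13 M reads, against 9.49 to 15.3 M in H2O libraries. How far depth limits the GF response was not tested beyond thinning.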
